A study of Mus musculus with 20 samples.

Results

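Interferon exposure of mouse embryonic fibroblasts that lack STAT2 was examined through RNA editing, with 2 interferon-treated and 2 untreated libraries of the STAT2-null line. Sites were taken where each of these 4 libraries had at least 50 reads, which held for 8391 of the 48425 listed sites and of the 10692 sites with a read in any library of the series. These sites lie in 338 loci, of which 303 are annotated genes and 35 are intergenic, and they had a median of 341 reads per site and library. The editing level is the share of reads over a site that carry the edited base, and differences between levels are given in percentage points.

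The series measured editing with sequenced RT-PCR amplicons in 5 fibroblast lines, each with 2 untreated and 2 interferon-treated libraries, 20 libraries in all. The lines carry the genotype labels ADAR1_WT, ADAR1_NULL, P150_KO, ADAR2_NULL and STAT2_NULL, and the ADAR1_WT line is called wild type below, although no label names it the parent or matched control of the STAT2-null line. A further line of the 6 in the design text was not analysed here. Each genotype is represented by 1 line, so genotype and line cannot be told apart, and for the interferon its kind, its dose and the length of exposure stay unnamed (not given in the sources used here). No label says that the paired libraries of a group are separate cultures. The p-values therefore reflect spread among libraries alone, and that spread may be technical.

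Adenosine deaminases acting on RNA turn adenosines of RNA duplexes into inosines, which sequencing reads as guanosines. ADAR1 is made as a constitutive, mostly nuclear p110 form and as a longer p150 form whose promoter responds to interferon, while ADAR2 is the product of Adarb1 and is best known for recoding transcripts of ion channels and receptors. STAT2 is part of the transcription factor complex that carries the type I interferon signal from the receptor to interferon-stimulated promoters, so editing in a line without it is editing in the absence of that route of signalling.

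The 4 libraries were alike in depth, with 5398075 and 5278891 reads summed over sites in the treated libraries and 5032861 and 5039826 in the untreated ones. The files hold editing and not expression, and no member site lies in Adar or Stat2, so the loss of STAT2 itself was not checked here. Of the fibroblast markers (10 genes) 3 have a listed site and 0 have a member site, of the neuron markers (6 genes) 1 has one, Gria3, and of the macrophage markers (4 genes) 0 have a listed site, so the labelled cell type could not be checked either. The second treated library was the most distinct of the 4. It lay at least 5 points above the other 3 libraries at 27 sites in 21 loci, against 8, 10 and 12 sites for the first treated, first untreated and second untreated libraries. The mean level, the counts of sites higher, lower and over 5 points apart and the counts for the difference of responses are also given without it.

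Most member sites carried little editing. At 1609 of the 8391 sites no edited read was found in any of the 4 libraries, and the mean over the 4 libraries reached 1% at 658 sites (7.84%) in 192 loci, 5% at 166 sites, 20% at 38 sites, 50% at 6 sites and 75% at 1 site. By annotation, 9.63% of the 5231 member sites in 3′ UTRs reached 1%, as did 6.71% of 1267 intronic sites, 7.0% of 243 nonsynonymous sites, 5.87% of 358 noncoding RNA sites and 2.25% of 1022 intergenic sites. The 658 sites with a mean of at least 1% are the ones tested below. The minimum is taken over treated and untreated libraries together and so favours neither.

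Over all tested sites together, treated and untreated STAT2-null libraries agreed about as closely as libraries of the same treatment. The mean level over the 658 sites was 5.31% and 5.94% in the treated libraries and 5.05% and 5.33% in the untreated ones. The groups overlap in this mean, since the first treated library lies below the second untreated one. The means were 5.62% ± 0.444 (SD, n = 2) treated and 5.19% ± 0.193 untreated, a difference of 0.432 points (SE 0.342; exact two-sided permutation p = 0.667, where 2 libraries against 2 cannot go below 0.333). Without the second treated library the difference was 0.153 points, and without the first treated library 0.720 points. In other summaries the groups did not overlap, with higher values in the treated libraries. Over the tested sites, pooled edited reads made up 7.67% and 8.14% of all reads treated and 7.01% and 7.24% untreated. The mean level over all 8391 member sites was 0.654% and 0.697% treated and 0.645% and 0.635% untreated.

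Between 2 libraries the root mean square difference in level over these sites was 3.93 points for the treated pair and 3.84 points for the untreated pair. The 4 pairs of a treated with an untreated library gave 3.99, 3.55, 4.28 and 3.90 points. Of these, 3.55 lay below both repeat pairs, 3.90 between them and 3.99 and 4.28 above them, and Pearson's r across the 658 sites lay between 0.899 and 0.925 in all 6 pairs. Wild-type libraries, over the 551 of these sites with at least 50 reads in each of them, differed by 11.2 points within the treated pair and 5.24 points within the untreated pair, and by 21.2, 21.2, 23.4 and 23.5 points between treatments. Neighbouring sites share amplicons and reads, so correlations and root mean squares over sites are descriptions and carry no p-value.

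**Figure D1:**
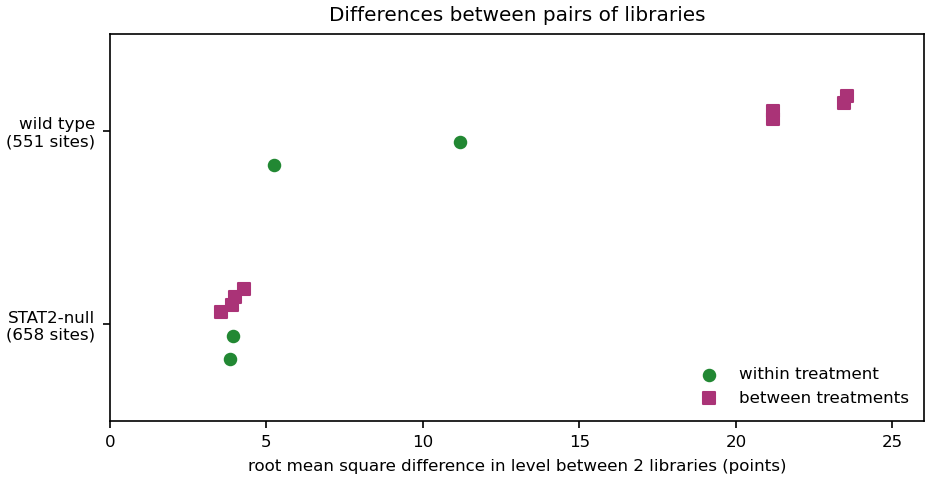
Root mean square difference in editing level (percentage points, x axis) for each pair of libraries in the STAT2-null line (658 sites) and in wild type (551 of them). Green circles are pairs of the same treatment and purple squares are pairs of a treated with an untreated library; the STAT2-null squares lie at 3.55 to 4.28 beside circles at 3.84 and 3.93, and the wild-type squares at 21.2 to 23.5 beside circles at 5.24 and 11.2.

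Site by site, the treated mean was higher at 374 and lower at 284 of the 658 sites. Without the second treated library the split was 350 higher and 356 lower over the 706 sites that then qualify. The treatment means differed by at most 5 points at 621 sites (94.4%) and by at most 10 points at 650, with a median difference of 0.279 points. Differences over 5 points were higher with interferon at 29 sites and lower at 8. Leaving out 1 library raised or lowered these counts: 52 higher and 10 lower without the first treated library, 28 and 13 without the second treated, 24 and 20 without the first untreated and 39 and 21 without the second untreated library. The correlation of the treatment means across the sites was 0.952 by Pearson's r and 0.569 by Spearman's rho, which gives the many sites near 1% more weight.

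No site was called for interferon in the STAT2-null line. In edgeR's quasi-likelihood F-test, adjusted by Benjamini-Hochberg, 0 of 658 sites (0.0%) passed an adjusted p of 0.05, and the smallest adjusted p was 0.999. At an unadjusted p under 0.05 there were 19 sites (2.89%), 13 higher and 6 lower, and limma on log2 odds called 0 with 26 at an unadjusted p under 0.05. The 2 treated levels lay wholly above or below the 2 untreated levels at 212 sites (32.2%), 132 higher (20.1%) and 80 lower (12.2%). These tests do not show that the levels were equal: limma's 95% interval for the change had a median half-width of 2.56 on the log2 odds scale, and 632 of the 658 intervals included 0.

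The spread grew with the level and shrank with depth, in both treatments alike. At the 492 sites between 1% and 5%, the median absolute difference was 1.04 points between treatments, 1.15 points between the treated libraries and 1.09 points between the untreated libraries. At the 128 sites between 5% and 20% these were 1.80, 2.44 and 3.0 points, and at the 38 sites of at least 20% they were 3.15, 3.34 and 3.84 points. Treatment means average 2 libraries and so vary less than single libraries, so the first value of each range is not on the same footing as the other two. By depth, 99.0% of the sites with at least 1000 reads in each library agreed within 5 points, against 91.5% of the 223 sites whose lowest coverage was under 200 reads. At the sites with at least 1000 reads the treated mean was higher at 72 and lower at 30. The split was 177 and 156 for 200 to 1000 reads, and 125 and 98 below 200 reads. By level it was 271 and 221 between 1% and 5%, 81 and 47 between 5% and 20%, and 22 and 16 above. Neighbouring sites share reads, so these splits carry no p-value.

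**Figure D2:**
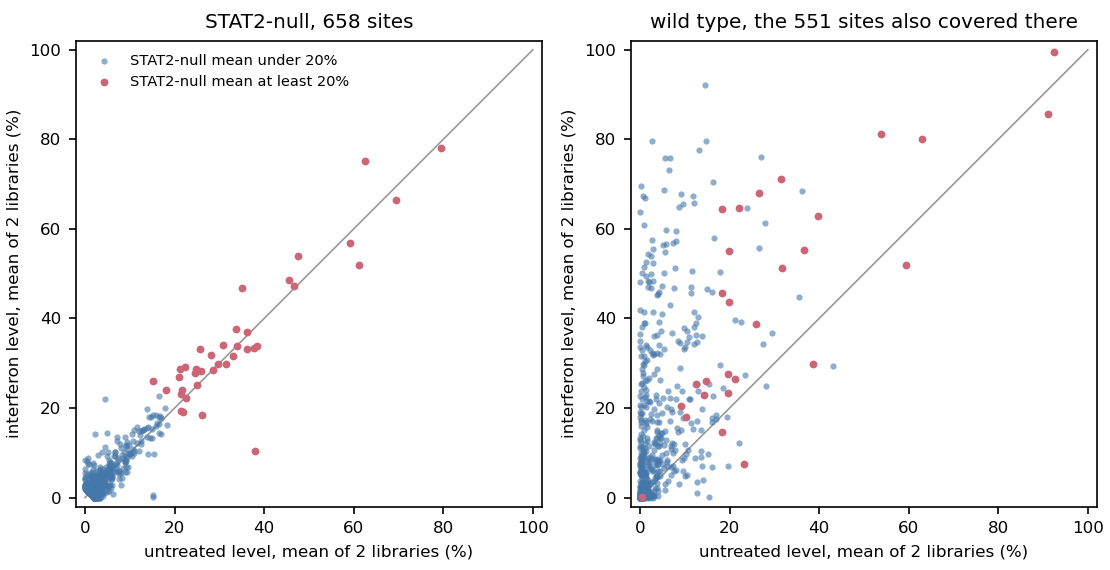
Editing level with interferon (y axis, %) against the untreated level (x axis, %), each the mean of 2 libraries, in the STAT2-null line (left, 658 sites) and in wild type (right, the 551 sites also covered there). Red points are the sites with a STAT2-null mean of at least 20% and the line marks equal levels; STAT2-null points lie along the line (r = 0.952), while many wild-type points lie far above it (r = 0.530).

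The pattern of editing across a locus was compared as well. In the 12 loci with at least 10 tested sites, which hold 192 of the 658 sites, Pearson's r between treated and untreated means across the sites of a locus ran from 0.549 to 0.995 with a median of 0.975. Mad2l1, a spindle checkpoint gene, had 32 tested sites over 776 bases of its 3′ UTR, with mean levels of 9.33% and 9.84% treated and 8.91% and 8.91% untreated. Rpa1, which encodes the large subunit of replication protein A, had 30 sites over 504 bases with means of 11.0% and 10.7% treated and 10.6% and 10.9% untreated. Fbxl17, a substrate-binding subunit of a ubiquitin ligase, had the lowest r, and its 17 sites averaged 1.82% and 6.35% treated and 2.31% and 3.43% untreated. Its second treated library lay above the other 3, and the first treated library lay below both untreated ones. Among loci with 5 to 9 tested sites, r was lower in some: -0.982 in Rwdd2b, -0.570 in Ifnar1, 0.0261 in Sh2d5, 0.0540 in Tln2, 0.141 in Taz and 0.448 in uc008qbb.2. Among all 40 loci with at least 5 tested sites, the treatment means differed by at most 2 points in 36, and the libraries of the treatments did not overlap in 17 (42.5%), 12 higher and 5 lower with interferon.

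The locus with the greatest difference was intergenic, on chromosome 12 between positions 55773272 and 55773345. Its 6 sites averaged 3.77% and 10.4% treated and 3.29% and 0.242% untreated, a difference of 5.33 points. The groups did not overlap, but the treated libraries lay farther from each other than the first treated library lay from either untreated one. Next came uc009bto.2, with 11.7% and 10.5% treated and 4.46% and 11.7% untreated over 7 sites, where the first untreated library alone was low. Trove2, which encodes the RNA-binding protein Ro60, held 16.5% and 18.7% treated and 13.4% and 15.9% untreated over 5 sites within 25 bases. Its groups did not overlap, and the difference was 2.98 points. Ivd, a leucine catabolism enzyme gene, was the only other of the 40 loci with a difference over 2 points, at 4.2% and 5.90% treated and 7.34% and 8.65% untreated over 5 sites, and it was lower with interferon.

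The single sites with the greatest differences between treatments often rested on 1 library or on few reads. An intronic site of Pwwp2a, a chromatin protein gene (chromosome 11, 43531198), held 0% and 20.8% treated and 30.4% and 45.4% untreated, a difference of -27.5 points (SE 12.8). The 0% stands for 0 of 247 reads, which allows a level of up to 1.21%. At the adjacent position, 43531199, at similar depth, the treated levels were 46.0% and 20.8% and the untreated ones 30.04% and 45.4%, and there the groups overlapped. Between these 2 neighbouring bases only the first treated library changed by much, from 0% to 46.0%, and the other libraries held nearly the same levels.

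An intronic site of Crtc1, a coactivator of CREB (chromosome 8, 72919081), held 32.8% and 11.2% treated and 2.80% and 6.10% untreated, with at least 80 reads in each library. The groups did not overlap and the first treated library was far above the rest. An intronic site of Homer1, a postsynaptic scaffold gene (chromosome 13, 94128180), held 0% and 28.6% treated and 0% and 4.41% untreated on as few as 56 reads, so that 0 of 62 reads in the first treated library still allows up to 4.84%. A nonsynonymous site of the kainate receptor subunit gene Grik2 (chromosome 10, 48992595; isoleucine to valine) held 0.755% and 15.6% treated and 0.510% and 0.223% untreated. At Homer1 and Grik2 the second treated library alone was high. At Grik2 the first treated library stood at 0.755% against untreated levels of up to 0.510%. Without the second treated library the fitted change at Homer1 turned negative (-3.45 on the log2 odds scale, against 2.30 with all libraries, both by edgeR).

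Repeats were closer at other sites of this group. Trove2 at chromosome 1 position 145602508 held 73.5% and 76.7% treated and 59.6% and 65.5% untreated, on at least 213 reads. The groups did not overlap, with a difference of 12.6 points (SE 3.33) and a limma interval of -1.87 to 3.57 for the log2 odds change. In the 3′ UTR of uc008urm.1 (chromosome 4, 124616216) the treated levels were 9.47% and 7.23%, and both untreated levels were 0, on 67 and 76 reads, which allow up to 4.48% and 3.95%. That was a difference of 8.35 points (SE 1.12), with a limma interval of 1.76 to 5.81 for the log2 odds change, which excludes 0. The others with the greatest differences were C330018D20Rik (11.7 points, SE 7.78), a further Rpa1 site at 75114095 (11.0, SE 6.30), the intergenic site at chromosome 12 position 55773272 (9.50, SE 10.6) and Zfp941 (-7.64, SE 3.99). None of these 10 sites was called by edgeR (adjusted p = 0.999 for each), and over all settings tried their adjusted p ran from 0.565 to 1.0.

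The high sites, those with a mean of at least 20% over the 4 libraries, number 38 in 28 loci. They were chosen by these levels, so the levels are a description. The lowest site inside the limit was in Nol10 at 20.4% and the highest outside it was in uc009bto.2 at 19.6%. Of the 38 sites 27 lie in 3′ UTRs (71.1%, against 76.6% of the 658 tested sites and 62.3% of all members), 4 are nonsynonymous, 4 intronic and 3 in a noncoding RNA. Rpa1 has 5 of them within 439 bases, Mad2l1 3 within 190 bases, the noncoding RNA uc012aji.1 3 within 29 bases, and Exoc8 and Pwwp2a 2 each, while 23 loci have 1.

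Levels at these sites were high with and without interferon. Over the 38 sites the mean level was 33.8% and 36.4% in the treated libraries and 32.8% and 35.7% in the untreated ones, so the groups overlap. The highest and the lowest of the 4 libraries differed by a median of 8.77 points per site and by at most 10 points at 22 of the 38. Treated and untreated levels overlapped at 21 sites, the treated ones were higher at 13 and lower at 4. The 17 sites without overlap stand beside 32.2% of all tested sites (20.1% higher and 12.2% lower). By edgeR 0 of the 38 were called (0 at an unadjusted p under 0.05), all 38 limma intervals included 0, and 15 of them lay within 2 log2 odds units on either side of 0.

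The highest site was in the 3′ UTR of Rpa1 (chromosome 11, 75114517), with 78.7% and 77.7% treated and 77.4% and 81.5% untreated, on at least 121 reads per library. The groups overlapped, and the difference was -1.31 points (SE 2.11). The other Rpa1 sites are 75114086 (52.7% and 51.2% treated, 50.3% and 72.2% untreated), 75114080 (53.4% and 54.3%, 49.0% and 46.3%) and 75114079 (48.6% and 45.7%, 39.5% and 53.7%). The last pair are adjacent bases. At 75114086 the second untreated library alone was high. At 75114095 the levels were 21.2% and 31.0% treated and 19.0% and 11.1% untreated. Treated levels were thus higher without overlap at 75114095 and 75114080, while the groups overlapped at 75114517, 75114086 and 75114079.

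Mad2l1 had the deepest high site, at chromosome 6 position 66490264, with at least 8148 reads in each library. It held 27.0% and 28.5% treated and 24.8% and 24.4% untreated, a difference of 3.17 points (SE 0.790). The leading site, 66490075, held 47.0% and 50.3% treated and 45.5% and 45.5% untreated, also 3.17 points apart (SE 1.67), and 66490120 held 28.3% and 31.4% treated and 32.7% and 26.6% untreated. The treated libraries were thus above the untreated ones at the first 2 of these sites and overlapped them at the last. Limma's interval at 66490075 was -1.52 to 1.88 on the log2 odds scale, which leaves room for changes in either direction larger than the one seen.

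Recoding sites were among them. Cog3, a Golgi tethering subunit, carries an isoleucine-to-valine site (chromosome 14, 76119526) at 59.1% and 74.0% treated and 72.7% and 66.1% untreated, with the untreated levels inside the treated range. Blcap, a small membrane protein gene first described in bladder cancer, carries a tyrosine-to-cysteine site (chromosome 2, 157383885) at 34.7% and 33.2% treated and 30.9% and 30.8% untreated on at least 4567 reads. There the treated libraries were higher by 3.13 points (SE 0.771). The other Blcap sites held 13.4% and 17.0% treated and 13.7% and 12.1% untreated (glutamine to arginine, 157383876) and 6.76% and 4.90% treated and 4.98% and 3.77% untreated (lysine to arginine, 157383846), and both overlapped.

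A threonine-to-alanine site in uc008wxi.1 (chromosome 5, 31475853) held 16.4% and 31.7% treated and 21.4% and 21.8% untreated. A serine-to-glycine site in Ppwd1, a spliceosomal peptidyl-prolyl isomerase gene (chromosome 13, 105018767), held 9.66% and 12.2% treated and 11.7% and 7.13% untreated. At these sites the treated libraries enclosed or straddled the untreated ones. No synonymous member site reached a mean of 5%, so these 6 and the Ifi202b site described next are all the coding sites that did.

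Ifi202b, an interferon-inducible gene of the family of cytosolic DNA sensors, carries a lysine-to-glutamate site (chromosome 1, 175901522) at 56.8% and 56.8% treated and 61.0% and 57.4% untreated, on at least 1783 reads. Its levels split the lines without regard to treatment. ADAR2-null cells held 59.9% ± 0.728 (SD, n = 2) untreated and 56.6% ± 1.88 treated, while wild-type cells held 0.379% ± 0.327 and 0.191% ± 0.162 and ADAR1-null cells 0.242% ± 0.0860 and 0.240% ± 0.209. The p150-knockout libraries did not reach 50 reads there. The difference between untreated ADAR2-null and wild-type cells was called (adjusted p = 0.000817 by edgeR's quasi-likelihood test). The genomic base of each line at this position was not analysed here, and the values alone do not distinguish an edited RNA base from a base that differs in the DNA.

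Further 3′ UTR sites completed the upper part of the ranking. Trove2, given above, and C330018D20Rik (chromosome 18, 57116643; 41.6% and 52.0% treated, 29.3% and 40.8% untreated) had treated levels above the untreated ones. Malt1, the paracaspase of NF-κB signalling (chromosome 18, 65636731), held 32.5% and 41.4% treated and 36.6% and 35.9% untreated. Car5b, a mitochondrial carbonic anhydrase (chromosome X, 160415964), held 31.4% and 36.2% treated and 40.1% and 36.6% untreated, with the treated levels lower. Ovca2, a hydrolase gene (chromosome 11, 74989846), held 31.2% and 35.2% treated and 34.4% and 38.0% untreated, and Nt5dc3 (chromosome 10, 86300002) 33.6% and 33.9% treated and 29.1% and 38.8% untreated. Malt1, Ovca2 and Nt5dc3 overlapped between treatments and Car5b did not. From gene to gene, the ranges over the libraries of Malt1, Car5b, Ovca2 and Nt5dc3 overlapped.

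The DNA damage mediator gene Mdc1 (chromosome 17, 35994679) held 31.5% and 32.4% treated and 27.8% and 28.6% untreated, 3.70 points higher with interferon (SE 0.583). The proteasome subunit gene Psma3 (chromosome 12, 72095616) held 27.7% and 31.8% treated and 36.3% and 26.5% untreated. The lipid synthesis gene Cds2 (chromosome 2, 132135616) held 34.7% and 31.5% treated and 18.4% and 33.1% untreated, where the first untreated library alone was low. The exocyst subunit gene Exoc8 (chromosome 8, 127418084) held 31.7% and 25.3% treated and 27.1% and 30.03% untreated. Only Mdc1 of these 4 was free of overlap between treatments.

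The noncoding RNA uc012aji.1 (chromosome 17, 6122608) was among the deepest, with at least 3587 reads, and held 39.4% and 36.0% treated and 34.2% and 33.4% untreated, 3.86 points higher with interferon (SE 1.77). Its site at 6122636 held 31.6% and 31.4% treated and 31.3% and 34.7% untreated, and that at 6122631 held 28.2% and 28.2% treated and 25.2% and 26.4% untreated. Treated levels were higher without overlap at 6122608 and 6122631 and overlapped the untreated ones at 6122636. An intronic site of S100pbp (chromosome 4, 128858467) held 27.3% and 30.02% treated and 24.6% and 25.2% untreated, 3.79 points higher with interferon (SE 1.37). Further leading sites were in uc009bto.2, uc009qeo.1, 9930104L06Rik, Zfp941 and uc008jgg.1, with means over the 4 libraries of 22.3% to 25.7%.

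**Figure D3:**
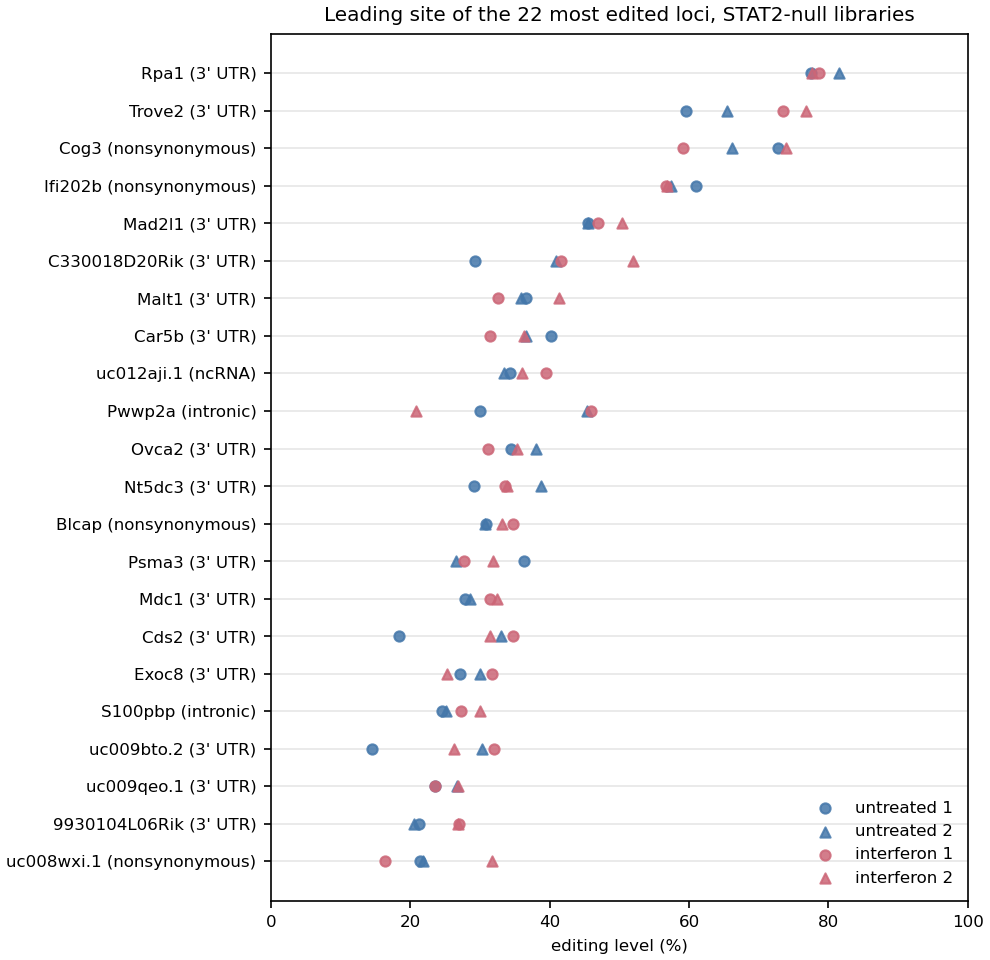
Editing level (%, x axis) of the leading site in each of the 22 most edited loci of the STAT2-null line, 1 point per library. Blue marks untreated and red treated libraries, circles the first and triangles the second library. Treated and untreated points interleave in many lines of the plot. In others they lie apart, with higher treated levels at Trove2, Mad2l1, Blcap and Mdc1 among others and lower ones at Car5b and Ifi202b. The lines run from Rpa1 at 77.4% to 81.5% at the top to uc008wxi.1 at 16.4% to 31.7% at the bottom.

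The same 38 sites were then read in the other lines, whose values did not choose them. In untreated ADAR1-null cells 26 were covered, with a median of 0.827%, and in treated ADAR1-null cells 34 were covered, with a median of 0.594%. All 4 STAT2-null libraries lay above both ADAR1-null libraries at each of the 26 and 34 sites. The choice of sites on high STAT2-null levels favours that order, so these counts are a description. Medians were 5.85% (35 sites) and 3.25% (22 sites) in untreated and treated p150-knockout cells, 13.2% (33) and 41.5% (35) in ADAR2-null cells and 21.6% (28) and 44.7% (28) in wild-type cells. Over the sites covered in wild type, STAT2-null medians were 30.2% untreated and 31.7% treated. STAT2-null cells thus stood above untreated and below treated wild-type cells in the median, with no test of these medians because the sites were chosen on STAT2-null levels.

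Single sites did not follow that order throughout. All 4 STAT2-null libraries lay above both untreated wild-type libraries at 12 of 28 sites, among them Mad2l1 at 66490075 (31.6% ± 2.42 in wild type), Malt1 (18.4% ± 3.12), Ovca2 (22.05% ± 8.27) and Blcap (14.8% ± 3.61). They lay below both at 5, in Rpa1 (92.4% ± 2.16), Cog3 (91.2% ± 1.47), Nt5dc3 (53.8% ± 1.16), Mdc1 (36.7% ± 2.58) and Cds2 (59.4% ± 0.204). Against treated wild-type libraries they lay below at 15 sites and above at 4, in Ifi202b, C330018D20Rik, uc012aji.1 at 6122608 and Blcap. Ifi202b, where editing was not told from a DNA difference, is also among the 12. The choice of sites on high STAT2-null levels favours the counts above. No share over all sites covered in both lines stands beside them, so all these counts are a description. With 3′ UTR sites and recoding sites on both sides, the order of the lines differed from site to site.

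Comparisons among the other lines, all against the same untreated wild-type libraries, give the levels of these sites in lines labelled as lacking an editing enzyme. Each is 1 line, so the enzyme and the line cannot be told apart. Untreated ADAR1-null cells were lower than wild type at 23 of the 25 sites tested, and higher at 0, by edgeR's quasi-likelihood test. Over all 386 sites tested in that comparison 49.2% were called, 49.0% lower and 0.259% higher. The 2 not called were uc012aji.1 at 6122636, where ADAR1-null cells held 20.7% ± 3.68 (adjusted p = 0.0748), and uc009bto.2 at 47897520 (1.25% ± 1.77). Mad2l1 at 66490075 stood at 0.0658% ± 0.0931 and Blcap at 0.284% ± 0.146 in ADAR1-null cells (adjusted p = 7.51e-06 and 2.36e-06 by edgeR), while Rpa1 at 75114517 kept 45.3% ± 6.6 and Cog3 51.0% ± 0.919.

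Untreated p150-knockout cells were lower at 14 of 27 sites, beside 33.1% called, 32.5% lower and 0.58% higher, of all 517 sites tested. Without the first or the second p150-knockout library the count was 8 or 7. Mad2l1 at 66490075 stood at 1.45% ± 0.575 there and was called (adjusted p = 0.00103 by edgeR), while Malt1 (8.97% ± 0.224) and Blcap (6.16% ± 1.71) were not. Untreated ADAR2-null cells were lower at 8 of 28 sites and higher at 1, Ifi202b, beside 13.6% called, 12.9% lower and 0.68% higher, of all 588. The 8 include Cog3, at 7.93% ± 0.286 (adjusted p = 6.50e-05 by edgeR), and uc012aji.1 at 6122636, at 1.79% ± 1.24. That count of 8 was 3 without the second untreated wild-type library and 4 and 2 without the first and second ADAR2-null libraries. At most of the high sites tested the level was thus lower in the line without ADAR1. At Cog3 and uc012aji.1 at 6122636 it was lowest of the untreated lines in the one without ADAR2. Rpa1 at 75114517 was also lower in untreated ADAR2-null cells than in wild type (40.5%, adjusted p = 0.0141 by edgeR). Its ADAR2-null libraries held 36.4% and 44.6% and overlapped the ADAR1-null ones, of which the lower held 40.7%. The ADAR1-null and ADAR2-null lines were thus not told apart at that site. Rpa1 at 75114079, which was not covered in wild type, held 2.85% in untreated ADAR2-null and 47.9% in untreated p150-knockout cells.

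**Figure D4:**
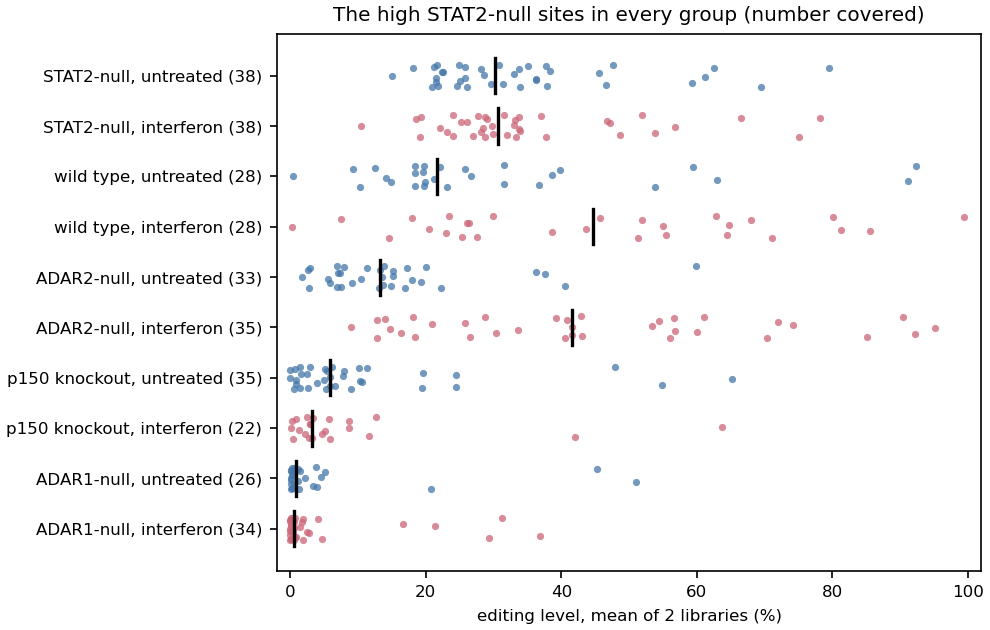
Editing level (%, x axis, mean of 2 libraries) of the high STAT2-null sites in every line and treatment, 1 point per site, with the number of sites covered in brackets. Black bars are medians; they stand at 0.827% and 0.594% in untreated and treated ADAR1-null cells and at 21.6% and 44.7% in untreated and treated wild type.

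Wild-type cells give the response that the STAT2-null libraries can be set against. There interferon raised editing at 494 and lowered it at 8 of 1223 sites tested (40.4% higher, 0.654% lower and 41.0% called by edgeR's quasi-likelihood test). The minimum mean of 1% includes the treated libraries, which favours sites that rise. Of the 494 sites 491, in 114 loci, are member sites of the STAT2-null line. In wild type their median level went from 0.313% to 12.2%, with a median rise of 11.9 points and a rise of at least 20 points at 174 sites. Those wild-type values chose the sites and are a description.

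At the same 491 sites the STAT2-null line, whose values had no part in the choice, showed little difference. Its median level was 0.467% untreated and 0.505% treated, and the median difference was 0.0298 points, with 256 sites higher, 209 lower and 26 equal. The differences ran from -5.18 to 6.36 points, 486 sites lay within 5 points, and 0 rose by 20 points. For the 164 of these sites that reach a 1% mean in the STAT2-null line, limma's median change was 0.22 on the log2 odds scale, beside 4.70 in wild type. The upper end of the 95% interval in STAT2-null cells lay below the wild-type estimate at 150 sites and below the lower end of the wild-type interval at 76. The wild-type estimates here belong to sites chosen for their rise, which favours large ones.

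The site of the greatest wild-type rise among those tested lies in Mmgt1, whose product belongs to a complex that inserts membrane proteins into the endoplasmic reticulum (3′ UTR, chromosome X, 53840820). It held 10.5% and 12.8% treated and 8.36% and 10.1% untreated in STAT2-null cells. In wild type it held 87.6% and 96.6% treated and 15.5% and 13.7% untreated. The STAT2-null libraries did not overlap between treatments, but their difference was 2.44 points (SE 1.46) beside 77.5 points. In Gla, the lysosomal alpha-galactosidase gene (chromosome X, 131123085), the levels were 4.49% and 6.64% treated and 3.35% and 3.74% untreated, beside a wild-type rise of 66.7 points to 70.9% and 75.5%. Rhoa (chromosome 9, 108239461), which encodes a GTPase that controls actin, held 2.53% and 2.26% treated and 0.994% and 2.23% untreated, beside 65.3% and 68.6% in treated wild-type cells.

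The mismatch repair gene Mlh3 (chromosome 12, 86576054) held 5.06% and 3.08% treated and 3.05% and 1.75% untreated, against 83.1% and 68.6% in treated wild-type cells. Fubp3, which encodes a single-strand nucleic acid binding protein (chromosome 2, 31471414), held 1.67% and 4.61% treated and 2.07% and 3.89% untreated, and Sdf4, a calcium-binding protein of the Golgi lumen (chromosome 4, 155384775), 4.97% and 5.21% treated and 3.51% and 8.0% untreated. Fubp3 and Sdf4 overlapped between treatments, and their treated wild-type levels were at least 67.6% and 62.5%. Coq3, a ubiquinone synthesis gene (chromosome 4, 21838456), held 3.37% and 2.93% treated and 1.37% and 2.91% untreated. In wild type the untreated libraries together had 0 edited of 677 reads (a limit of 0.443%) and the treated ones held 36.7% and 90.7%, so there the untreated STAT2-null level was above the untreated wild-type one.

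Dnajc18, a J-domain cochaperone gene (chromosome 18, 35834187), held 0.903% and 4.90% treated and 5.85% and 0% untreated (0 of 386 reads, which allows up to 0.777%), so its libraries crossed. Agphd1, now named Hykk, a hydroxylysine kinase gene (chromosome 9, 54795019), had the greatest STAT2-null difference of these 10 sites. It held 9.88% and 17.1% treated and 5.48% and 8.97% untreated, 6.27 points higher (SE 4.02), beside 64.8 points in wild type. The transporter gene Slc35e1 (chromosome 8, 75004242) stood at 16.3% and 16.5% treated and 15.6% and 17.6% untreated, above the 8.62% and 1.91% of untreated wild-type cells. Both treated STAT2-null levels lay above both untreated ones at Mmgt1, Gla, Rhoa, Mlh3, Coq3 and Agphd1. That held at 20.1% of all 658 tested sites. Fubp3, Sdf4, Dnajc18 and Slc35e1 overlapped between treatments. In none of the 10 was the STAT2-null change called (edgeR adjusted p = 0.999 for each).

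**Figure D5:**
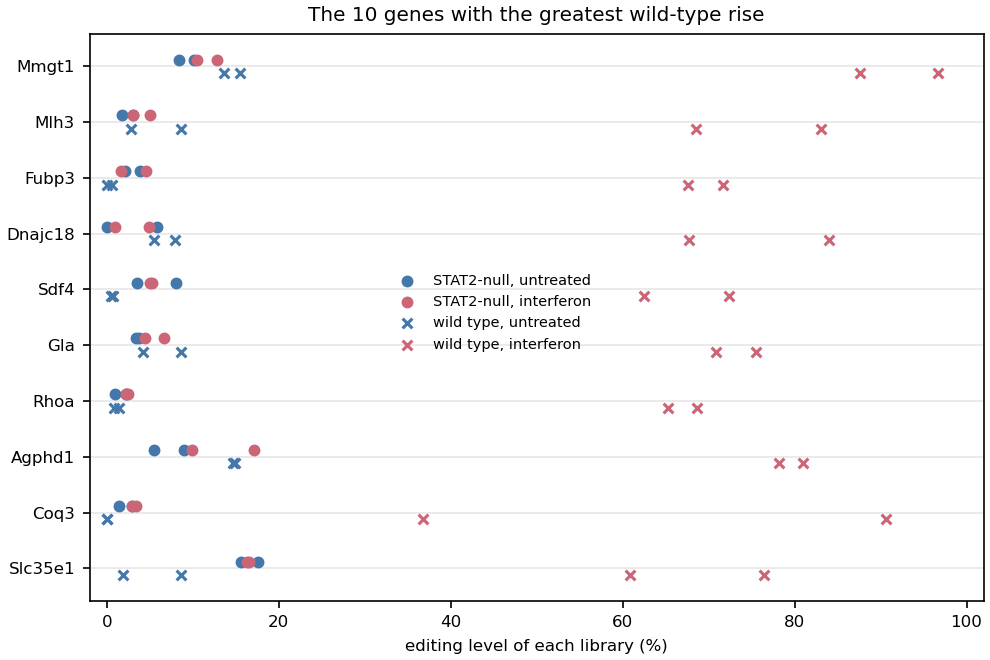
Editing level (%, x axis) of each library at the 10 genes with the greatest wild-type rise among sites tested in the STAT2-null line. Circles are STAT2-null and crosses wild-type libraries, blue untreated and red treated; red crosses lie between 36.7% and 96.6%, while red circles lie between 0.903% and 17.1% beside their blue circles.

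The difference between the responses was tested directly at the 1026 sites with at least 50 reads in all 8 libraries of these lines and a mean of at least 1%. That mean includes the treated wild-type libraries, which favours sites that rise in wild type and so a smaller STAT2-null response. The difference was called at 142 sites (13.8%) in 56 loci by edgeR's quasi-likelihood test, 141 (13.7%) with a smaller and 1 (0.0975%) with a larger response in STAT2-null cells, and 305 passed an unadjusted p under 0.05. Of the 142 sites 141 were also called higher in wild type, so the split of directions carries that choice of sites. Without the first or second treated STAT2-null library the count was 69 or 78, without the first or second untreated one 91 or 70, with a fit to these 8 libraries alone 74, and by limma 260. Of the 10 genes above, chosen on the wild-type rise that also enters this test, Mmgt1, Fubp3, Sdf4, Gla and Rhoa kept the call in all settings tried. Mlh3 and Slc35e1 lost it without any 1 of the STAT2-null libraries and, among wild-type libraries, without the first treated one or the second untreated one (edgeR adjusted p of up to 0.112 and 0.0998). Mlh3 and Coq3 lost it in the fit to 8 libraries (edgeR adjusted p = 0.0773 and 0.0578). Dnajc18 and Agphd1 were not called (adjusted p = 0.140 and 0.111 by edgeR), but Dnajc18 was without the second untreated STAT2-null library (0.0428) and Agphd1 was by limma (0.0357) and with a 5% minimum level (0.0382). Without the first untreated STAT2-null library the fitted difference at Dnajc18 turned to 0.79 on the log2 odds scale.

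The single site with a larger response was in the 3′ UTR of uc009bto.2 (chromosome 6, 47897588). It held 9.16% and 9.33% treated and 2.58% and 10.4% untreated in STAT2-null cells, so those libraries overlapped. In wild type the level was 15.0% and 15.8% untreated and 0% and 0.377% treated, so the difference lay in the wild-type fall of 15.2 points (adjusted p = 0.0141 for the difference by edgeR). It was not called without the first untreated STAT2-null library, where 0 sites had a larger response.

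At the high sites, 0 of 28 had a different response by this test, beside 13.8% of all sites, and 4 of 27 rose in wild type (Rpa1 at 75114517, Mad2l1 at 66490075, Malt1 and Ovca2), beside 40.4% of all wild-type sites tested. The shares over all sites rest on a minimum level that includes treated wild-type libraries. The high sites were chosen on STAT2-null levels, so the counts and the shares are not on the same footing. Malt1, for one, went from 18.4% ± 3.12 to 64.5% ± 15.2 in wild type (adjusted p = 0.0340 by edgeR) and from 36.3% ± 0.479 to 37.0% ± 6.23 in STAT2-null cells, and the difference between these responses had an adjusted p of 0.189.

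In gene lists chosen by role, 0 sites were called in the STAT2-null line in each list (edgeR), and at an unadjusted p under 0.05 each held at most 1. The list of long 3′ UTR duplexes (10 genes, among them Mad2l1, Rpa1, Cds2 and Rhoa) had 99 tested sites with a median difference of 0.366 points, beside 0.279 over all 658. In wild type 85 of 176 of its sites rose and 2 fell, beside 40.4% higher and 0.654% lower of all sites tested, and the response was smaller in STAT2-null cells at 33 of 156, beside 13.7% of all. The list of ADAR2-type targets had 13 tested sites with a median difference of 0.129 points, with 2 of 20 higher in wild type (40.4% of all sites) and a smaller response at 2 of 18 (13.7% of all). Among them Flna, an actin crosslinker gene with an intronic site (chromosome X, 71471989), held 5.14% and 3.66% treated and 7.89% and 8.77% untreated. Its groups did not overlap, with lower levels in the treated libraries, and the site was not called (edgeR adjusted p = 0.999).

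Adarb1, the gene of ADAR2, had 5 tested sites of its 20 member sites, and its highest (intronic, chromosome 10, 76786805) held 10.3% and 10.3% treated and 6.78% and 10.6% untreated on at least 5328 reads. Wild type held 16.9% ± 3.99 untreated at that site. Gria3, Tmem63b, Htr2c, Kcna1 and Unc80 had member sites but no tested one, and no level at their highest sites exceeded 1.23% in any STAT2-null library. The ADAR1-type list had 3 tested sites, all in Blcap, and a further gene, the glycosylase gene Neil1 (chromosome 9, 56992115), whose highest site had 0 edited reads in both treated libraries and 3.52% and 0.277% untreated.

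Of the 19 genes on the interferon pathway list, 2 had member sites. In Ifnar1, which encodes a chain of the type I interferon receptor, the highest site is intronic (chromosome 16, 91490832) and held 3.66% and 5.73% treated and 0% and 2.84% untreated, where 0 of 179 reads allows up to 1.68%. This site ran against its locus: the 6 tested Ifnar1 sites, which are all the tested sites of the list, averaged 0.874% and 1.77% treated and 2.08% and 2.42% untreated, without overlap. Their median difference was -1.92 points, with 2 sites higher and 4 lower in the treated libraries, and 0 were called (edgeR). At 91490832 wild type had 0 of 493 reads edited untreated and 0 of 345 treated, allowing up to 0.609% and 0.870%. In Slfn5, an interferon-stimulated Schlafen gene, no site reached a mean of 1%, and its highest held 0.481% and 0.820% treated and 0.503% and 0.880% untreated (chromosome 11, 82776210). In wild type 13 of the 21 tested sites of this list rose, beside 40.4% of all sites, and the response was smaller in STAT2-null cells at 11 of 22, beside 13.7% of all. The genes of the DNA repair list with member sites, Rpa1, Mlh3 and Mdc1, also stand in the duplex list. They had 43 tested sites with a median difference of 0.376 points, 19 of 46 higher in wild type and a smaller response at 6 of 40. Both counts lie near the shares over all sites, 40.4% and 13.7%.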

How the data were processed

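Amplicons were made from total RNA and indexed in 15 cycles of PCR, per the labels' protocols. Per the submitters' processing notes, the tools were BWA and SAMtools and the build was mm9, with versions and filters not given in the sources used here. Each library has its own deposited table, in which coverage and edited reads are counts and the level is a fraction, per the file headers. The level used is edited reads over coverage; it equals the deposited fraction to the digits printed. Positions are printed as deposited; whether they count from 0 or 1 is not stated.

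Edited and unedited counts were modelled with edgeR 4.0.16 (R 4.3.3; methylation design, glmQLFit, glmQLFTest, all 20 libraries, 1 coefficient per group). Sites needed at least 50 reads in every library compared and a mean of at least 1%. Calls are two-sided at a Benjamini-Hochberg adjusted p under 0.05. limma 3.58.1 on log2((edited + 0.5)/(unedited + 0.5)) gave intervals. The fits were tested on simulated data. A level of 0 was given the limit that 3 edited reads allow; reads carry no molecular identifiers, so limits cover counting error only. Intergenic sites within 5 kb form 1 locus.

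Named were the leading site of the 25 most edited loci, the 10 greatest differences, coding sites of at least 5%, the 10 greatest wild-type rises and the highest site of each listed gene. Other high sites and uc009bto.2 at 47897588 were named after their values were seen. Some items that this rule names are not reported here. Members and lists were chosen with earlier results of these data known. Symbols follow the files; of 56 checked against RefSeq (GRCm38.p6), 47 matched, 2 were synonyms (Agphd1 and Trove2) and 7 matched none. Alternatives covered coverage and level minimums, limma, the libraries in the fit, a replicate block and leaving out libraries.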

Additional observations from a re-analysis of the deposited data

Results flagged for a closer look

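The difference between the STAT2-null and the wild-type response was called at 142 sites by edgeR's quasi-likelihood test (adjusted p under 0.05), so the change with interferon differed between the lines there. The named sites among them had differences on the log2 odds scale, STAT2-null minus wild type, of -5.99 at Mmgt1, -5.15 at Mlh3, -8.97 at Fubp3, -8.34 at Sdf4, -4.74 at Gla, -6.85 at Rhoa and -5.66 at Slc35e1. At Coq3 the fitted difference was -11.86, but both untreated wild-type libraries held 0 edited reads there, so this value depends on the prior count and is no measure of size. The difference at uc009bto.2 was 7.61 and had the opposite sign, with treated wild-type levels of 0% and 0.377%. Untreated wild-type levels at Fubp3 were 0% and 0.641%. The sizes at uc009bto.2 and Fubp3 thus also rest on few edited reads. Of the named sites, Mmgt1, Fubp3, Sdf4, Gla and Rhoa were called in every setting tried.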

How the results depend on the processing

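Levels of 0 or near 1% and 2 libraries per group limit these comparisons; expression and genomic bases were not analysed here. No STAT2-null site was called under any alternative except without a minimum level, where 1 of 6782 was, intronic in Adarb1 (chromosome 10, 76786797; 0.640% and 0.690% treated, 0% and 0.0529% untreated; adjusted p = 0.00442 by edgeR; 185 sites at an unadjusted p under 0.05). Calls for the difference between responses were 260 by limma, 74 with 8 libraries in the fit and 69 to 141 when leaving out 1 library. Leaving out 1 library gave 344 to 534 wild-type calls and, among high sites lower than wild type, 21 to 23 in ADAR1-null, 7 to 12 in p150-knockout and 2 to 6 in ADAR2-null cells. Agreement within 5 points was 99.6% with no minimum level and 83.7% with a 5% minimum, and 91.3% to 94.2% when leaving out 1 library, an alternative chosen after seeing the data. The high sites numbered 87, 19 and 6 with limits of 10%, 30% and 50%, and 33 to 39 without 1 library. The mean difference stayed above 0 under all alternatives, at 0.0349 points with no minimum level, 0.869 with a 5% minimum and 0.153 to 0.720 without 1 library. Signs turned at a pair of sites when 1 library was left out. The fitted difference of responses at Dnajc18 ran from -6.89 to 0.79 (highest without the first untreated library), and the fitted change at Homer1 from -3.45 to 5.93 (lowest without the second treated library). Their cause was not tested.

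Same-numbered treated and untreated libraries did not deviate together (r = -0.018 across 658 STAT2-null sites and -0.0297 across 551 wild-type sites), so the replicate numbers were not taken to pair them. With the replicate number as a block, calls were 0 for STAT2-null sites, 107 for the difference between responses, 494 for wild type, and 22, 9 and 2 for high sites lower in ADAR1-null, p150-knockout and ADAR2-null cells. The call for the difference of responses at Mlh3 was lost (adjusted p = 0.0650 by edgeR). The mean difference was 0.432 points.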
